A study of Mus musculus with 6 samples.

Results

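The Hedgehog genes described here are 9 of the 24354 genes in the deposited expression table. They were taken by symbol: the ligand Shh, the receptor Ptch1, the transducer Smo, the transcription factors Gli1, Gli2 and Gli3, and the coreceptors Gas1, Cdon and Boc. The rule for these 9 symbols used no measured value. The topic and the members were chosen with earlier results of these data known. Each had 1 row, and all 9 exceeded the minimum for testing, a mean of 1 FPKM over the libraries.

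RNA was sequenced from cells of the mouse epidermis at embryonic day E18.5, sorted by flow cytometry for high α6 integrin, the laminin receptor subunit that marks the basal layer. There were 3 libraries labelled Pik3caH1047R/H1047R (mutant 1 to 3), homozygous for an activating variant of the PI3K catalytic subunit p110α, and 3 libraries labelled WT (WT 1 to 3). All 6 carried the strain label C57BL6. The labels do not say how the allele was introduced, which promoter or Cre acts on it, or whether each library came from a separate or a pooled set of animals, so a p-value here reflects the spread among these samples only, part of which may be technical. Expression was given as FPKM, fragments per kilobase of transcript scaled for library size, which makes levels of different genes comparable. How the libraries were scaled to each other is not stated in the sources used here.

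In the Hedgehog pathway, the secreted ligand binds Patched, which otherwise holds Smoothened inactive, and the released Smoothened acts through the primary cilium on GLI factors, which turn target genes on or off. Gas1, Cdon and Boc are cell surface proteins that bind the ligand together with Patched. In the skin, Shh from the epithelium of the growing hair follicle acts on both epithelium and underlying dermal cells. Ptch1 and Gli1 are themselves textbook targets of the pathway, so their transcripts are widely used as its readout.

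The start regions of Gas1 and Ptch1 are shown because these are the coreceptor and the receptor with the largest differences between genotypes. RefSeq windows on GRCm38.p6, from 250 bases before to 50 bases after the annotated start, were matched by symbol for 6 of the 9 genes (Ptch1, Smo, Gli2, Gli3, Gas1 and Cdon). Windows of Shh, Gli1 and Boc were not used here. Both windows below lie on the minus strand of chromosome 13 and are written 5′ to 3′ in the direction of the gene, with capitals marking a GC box (GGGCGG or its reverse complement, CCGCCC). The Gas1 window is chr13:60177486-60177785 and the Ptch1 window is chr13:63565686-63565985. RefSeq starts can differ from the GENCODE gene spans printed below. The windows of Ptch1, Cdon and Gli3 lie wholly inside those spans, and the Gas1 window lies wholly before its span. Which start is used in these cells was not tested.
Gas1: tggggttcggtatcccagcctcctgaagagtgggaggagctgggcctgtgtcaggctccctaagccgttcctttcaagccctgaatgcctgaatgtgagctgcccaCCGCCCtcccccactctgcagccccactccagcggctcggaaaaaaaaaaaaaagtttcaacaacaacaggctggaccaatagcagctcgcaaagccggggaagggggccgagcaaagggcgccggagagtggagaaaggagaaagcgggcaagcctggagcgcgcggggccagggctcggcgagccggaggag
Ptch1: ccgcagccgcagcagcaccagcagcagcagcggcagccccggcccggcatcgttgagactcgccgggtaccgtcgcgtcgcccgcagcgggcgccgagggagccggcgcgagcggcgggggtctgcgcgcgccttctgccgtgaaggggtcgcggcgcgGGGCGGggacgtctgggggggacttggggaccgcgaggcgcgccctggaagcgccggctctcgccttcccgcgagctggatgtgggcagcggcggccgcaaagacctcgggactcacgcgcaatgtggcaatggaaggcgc
The Ptch1 window was 76.3% G and C with 47 CG dinucleotides, and the Gas1 window was 62.3% G and C with 17, against medians of 52.7% and 7 over all 32851 windows. The GC box was found in the windows of Gas1, Ptch1, Gli2 and Gli3, that is in 4 of the 6 genes, and in 35.7% of all windows. Other motifs were searched on both strands. The GLI consensus GACCACCCA was in 0 of the 6 windows and in 0.253% of all windows. Its core CCACCCA, which the consensus contains, was in 0 of the 6 and in 9.30% of all. The FOXO motif GTAAACA, searched because FOXO factors are restrained by PI3K signalling, was in 0 of the 6 and in 3.65% of all. A match is a description of letters in this window, and the lack of one says nothing of a factor's binding elsewhere.

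Of the 9 Hedgehog genes, 4 rose in mutant cells (Gas1, Shh, Ptch1 and Smo) and 0 fell, by limma on log2(FPKM + 1) with Benjamini-Hochberg adjustment over all genes tested and a threshold of 0.05. That is 44.4% of them, near the 46% of all 11385 genes tested that were called in either direction. By direction, 23.2% of all genes tested were called higher and 22.8% lower. The median log2 fold change, mutant minus WT, was 0.20 over the 9 genes and 0.01 over all genes tested. The mutant and WT libraries did not overlap for 5 of the 9 (Shh, Ptch1, Smo, Gli3 and Gas1), against 56% of all genes tested. With 3 libraries a group, an exact two-sided permutation test of a single gene cannot give a p below 0.1, and it gave 0.1 for these 5 genes.

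**Figure D1:**
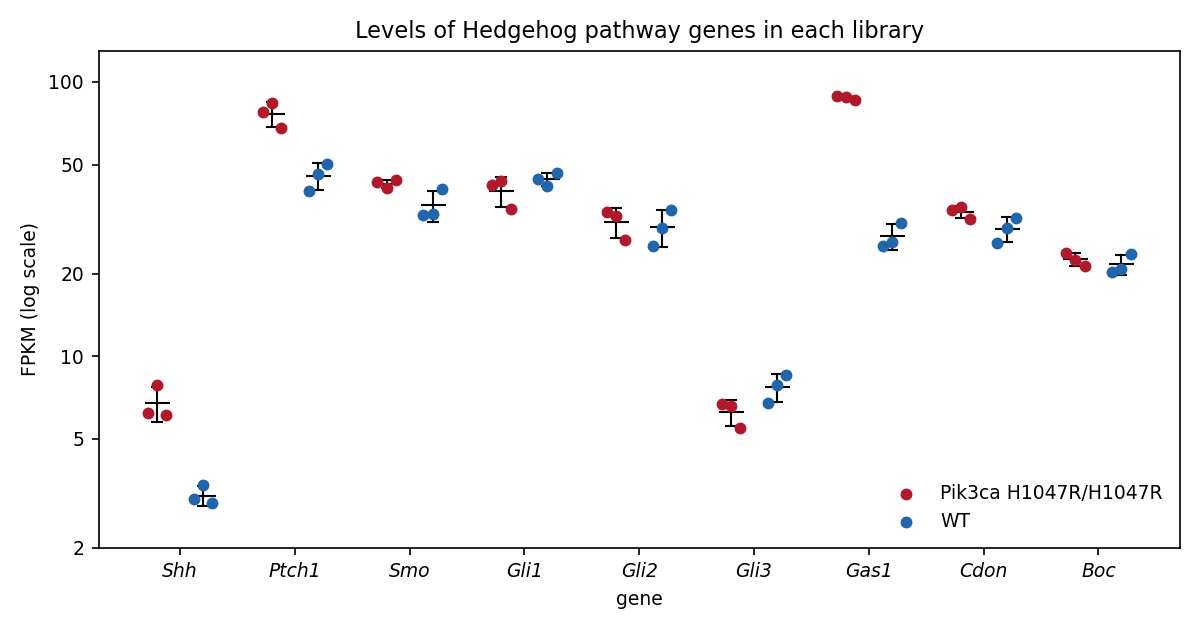
FPKM of the 9 Hedgehog genes on a log axis, with a point for each library (red for mutant, on the left, and blue for WT) and black bars for the mean and SD (n = 3 each). Gas1 averaged 87.8 FPKM in mutant libraries and 27.3 FPKM in WT libraries, and the points of Gli1, Gli2, Cdon and Boc overlap between the genotypes.

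Gas1 (chromosome 13, 60174405 to 60177365 on GRCm38, minus strand, a single-exon gene) encodes a GPI-anchored coreceptor that binds Shh. It was at 89.1, 88.1 and 86.2 FPKM in mutant 1, 2 and 3, against 25.2, 26.2 and 30.6 FPKM in WT 1, 2 and 3. Every mutant library was above every WT library, and the mutant libraries lay close together. The means were 87.8 ± 1.45 FPKM in mutant cells and 27.3 ± 2.90 FPKM in WT cells (SD, n = 3 each), a 3.21-fold ratio of means. The log2 fold change was 1.65 (SE 0.0781, 95% interval 1.47 to 1.83, limma adjusted p = 7.79e-06). It ranked 28th of the 11385 genes tested when these were ordered from the most raised, with 0.237% of genes having a larger log2 fold change.

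The table also holds a lower and an upper bound for each FPKM value, the level of which is not stated in the sources used here. For Gas1 the lowest mutant lower bound was 55.0 FPKM and the highest WT upper bound was 40.4 FPKM, so the bounds of the genotypes did not overlap. This held for 1 of the 9 Hedgehog genes and for 1.84% of all genes tested. The mean distance of the bounds from the value was 31.5% to 44.7% of the value over the 9 genes and 6 libraries, widest for Shh.

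Cdon (chromosome 9, plus strand, 35421128 to 35507652) and Boc (chromosome 16, minus strand, 44485049 to 44558897) encode related immunoglobulin superfamily proteins that serve as the other 2 coreceptors. Cdon was at 34.2, 34.9 and 31.6 FPKM in mutant 1 to 3, against 26.0, 29.5 and 31.8 FPKM in WT 1 to 3, and the groups overlapped by a narrow margin. Its log2 fold change was 0.20 (SE 0.0827, 95% interval 0.01 to 0.39, limma adjusted p = 0.0777), short of the threshold. Boc was at 23.8, 22.5 and 21.3 FPKM in mutant 1 to 3, against 20.3, 20.8 and 23.7 FPKM in WT 1 to 3, with the groups interleaved. The log2 difference for Boc was 0.06, with a 95% interval of −0.11 to 0.23 (limma adjusted p = 0.543).

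The mix of coreceptor transcripts differed between the genotypes. Gas1 made up 60.5%, 60.6% and 62.0% of the summed FPKM of the 3 coreceptors in mutant 1 to 3, against 35.2%, 34.3% and 35.6% in WT 1 to 3. This was 61.0% ± 0.841 in mutant libraries and 35.02% ± 0.682 in WT libraries (SD, n = 3 each). The sum of all 3 coreceptors was 147, 145 and 139 FPKM in mutant 1 to 3, against 71.5, 76.4 and 86.2 FPKM in WT 1 to 3. These shares are ratios within a library and are not changed by how libraries are scaled to each other. Cdon made up 22.7% to 24.0% in mutant libraries and 36.3% to 38.5% in WT libraries, and Boc 15.3% to 16.2% in mutant libraries and 27.2% to 28.4% in WT libraries.

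**Figure D2:**
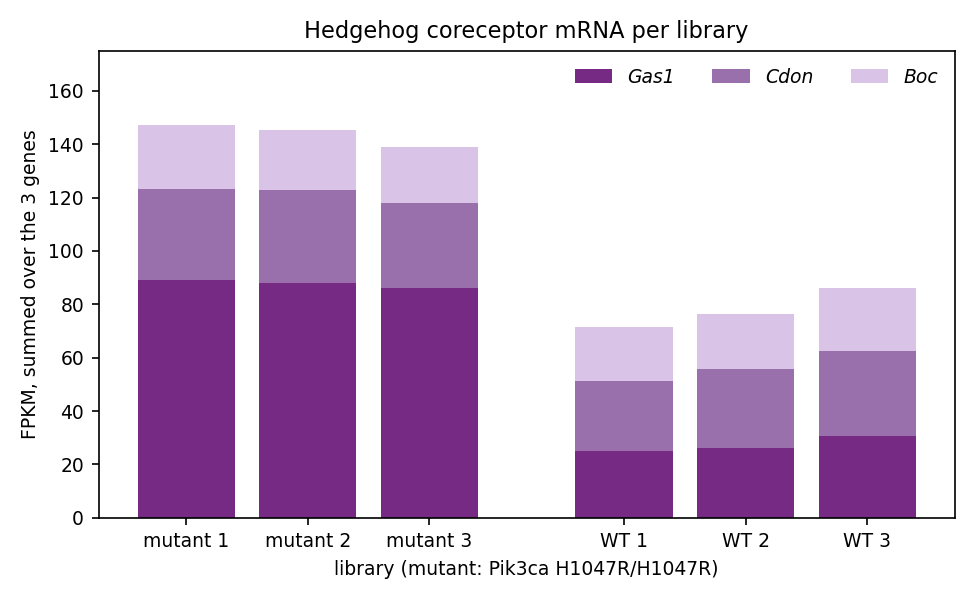
Stacked bars of the FPKM of Gas1, Cdon and Boc in each library, mutant libraries on the left and WT libraries on the right. The bars sum to 139 to 147 FPKM in mutant libraries and 71.5 to 86.2 FPKM in WT libraries, and most of the gap lies in the Gas1 segment.

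Shh (chromosome 5, 28456815 to 28467256, minus strand), the secreted ligand, was at 6.22, 7.85 and 6.11 FPKM in mutant 1 to 3, against 3.01, 3.38 and 2.91 FPKM in WT 1 to 3. Every mutant library was above every WT library. The means were 6.72 ± 0.976 FPKM in mutant cells and 3.10 ± 0.250 FPKM in WT cells (SD, n = 3 each), a 2.17-fold ratio of means, with a log2 fold change of 0.91 (SE 0.102, 95% interval 0.67 to 1.14, limma adjusted p = 0.000325). The deposited bounds overlapped, at 3.86 FPKM for the lowest mutant lower bound and 4.82 FPKM for the highest WT upper bound. Shh was among the lowest of the 9 genes, second lowest in mutant cells and lowest in WT cells. The other ligand genes Ihh and Dhh were below the minimum for testing, at a mean of 0.0332 and 0.0142 FPKM in mutant cells and 0.0465 and 0.0158 FPKM in WT cells.

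Ptch1 (chromosome 13, 63508328 to 63573598, minus strand), the ligand receptor, was at 77.6, 83.8 and 68.0 FPKM in mutant 1 to 3, against 40.2, 46.1 and 50.4 FPKM in WT 1 to 3. The lowest mutant library was above the highest WT library. The ratio of means was 1.68, from 76.5 ± 7.96 FPKM in mutant cells and 45.6 ± 5.13 FPKM in WT cells (SD, n = 3 each), with a log2 fold change of 0.73 (SE 0.103, 95% interval 0.50 to 0.97, limma adjusted p = 0.000981). Its deposited bounds overlapped, at 42.7 FPKM for the lowest mutant lower bound and 68.2 FPKM for the highest WT upper bound. Shh ranked 173rd and Ptch1 309th by log2 fold change among all genes tested.

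Smo (chromosome 6, 29735503 to 29761365, plus strand), the membrane transducer that Ptch1 restrains, was at 43.0, 40.9 and 43.8 FPKM in mutant 1 to 3, against 32.6, 33.1 and 40.7 FPKM in WT 1 to 3. WT 3 lay just below the lowest mutant library. The ratio of means was 1.20 and the log2 fold change 0.26 (SE 0.0892, 95% interval 0.06 to 0.47, limma adjusted p = 0.0424). The call depended on the fit: it was made in 10 of 18 alternatives, with adjusted p between 0.0028 and 0.135, and in only 1 of the 6 fits that each left out a library, the one without WT 3. Ptch1 exceeded Smo in every library, by a ratio of 1.80, 2.05 and 1.55 in mutant 1 to 3 and of 1.23, 1.39 and 1.24 in WT 1 to 3.

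The GLI genes did not pass the test. Gli1 (chromosome 10, 127329882 to 127341974, minus strand), an activator whose transcription is itself induced by the pathway, was at 42.2, 43.7 and 34.4 FPKM in mutant 1 to 3, against 44.2, 41.9 and 46.7 FPKM in WT 1 to 3. Its log2 difference was −0.14 (SE 0.0947, 95% interval −0.36 to 0.07, limma adjusted p = 0.245), so the groups overlapped and the interval does not reach the size of the difference in Ptch1. Per library, the ratio of Ptch1 to Gli1 FPKM was 1.84, 1.92 and 1.98 in mutant 1 to 3, against 0.910, 1.10 and 1.08 in WT 1 to 3, without overlap.

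Gli2 (chromosome 1, 118834132 to 119053619, minus strand), the main activator in many tissues, was at 33.5, 32.5 and 26.5 FPKM in mutant 1 to 3, against 25.2, 29.4 and 34.3 FPKM in WT 1 to 3. The groups were interleaved, with a log2 difference of 0.06 (95% interval −0.23 to 0.34, limma adjusted p = 0.725). Gli3 (chromosome 13, 15463235 to 15730026, plus strand), which is often processed to a repressor, was at 6.68, 6.56 and 5.48 FPKM in mutant 1 to 3, against 6.73, 7.83 and 8.53 FPKM in WT 1 to 3. Every mutant library was below every WT library, yet the log2 difference of −0.26 (SE 0.101, 95% interval −0.50 to −0.03) missed the threshold, with limma adjusted p = 0.0647. Under equal total FPKM, Gli1 and Gli3 took the opposite sign, at log2 0.18 and 0.03, neither called. The ratio of Gli2 to Gli3 was 4.83 to 5.01 in mutant libraries and 3.75 to 4.02 in WT libraries.

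**Figure D3:**
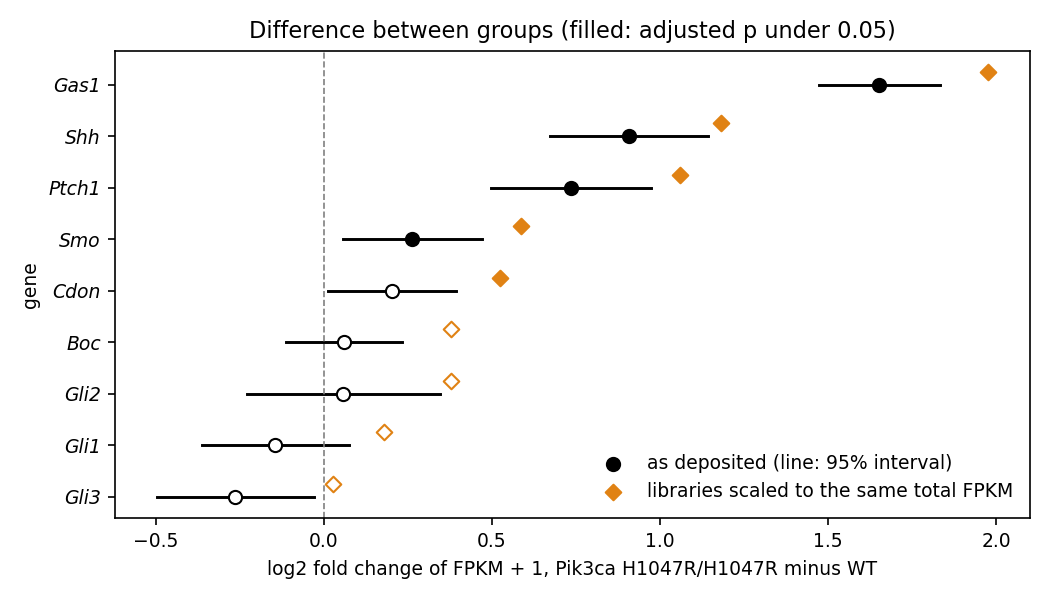
Log2 fold change of FPKM + 1 (mutant minus WT) of the 9 Hedgehog genes: circles for the values as deposited, with lines for the 95% limma interval, and orange diamonds for libraries scaled to the same total FPKM, filled where adjusted p was under 0.05. Gas1, Shh, Ptch1 and Smo are filled in both, Cdon only after the scaling, which also puts Gli1 and Gli3 to the right of the dashed line at 0.

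By mean FPKM, the order in mutant cells was Gas1, Ptch1, Smo, Gli1, Cdon, Gli2, Boc, Shh and Gli3. Neighbours that overlapped over libraries were Smo and Gli1, Gli1 and Cdon, Cdon and Gli2, and Shh and Gli3. In WT cells the order was Ptch1, Gli1, Smo, Gli2, Cdon, Gas1, Boc, Gli3 and Shh, where Ptch1 overlapped Gli1, Smo overlapped Gli2, Gli2 overlapped Cdon, and Cdon overlapped Gas1. Gas1 was thus the highest of the 9 in mutant cells and the sixth in WT cells.

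Within each genotype some libraries lay at the same end of their group for most of these genes. Mutant 3 was the lowest of the mutant libraries for 8 of the 9 genes (all but Smo), against 37.0% of all genes tested. WT 3 was the highest of the WT libraries for 8 of the 9 (all but Shh), against 37.6% of all genes tested. WT 1 was the lowest of the WT libraries for 7 of the 9 (all but Shh and Gli1), against 37.8% of all genes tested. The female-expressed Xist was at 0.733, 0.0542 and 71.1 FPKM in mutant 1 to 3, and at 30.5, 24.2 and 0.530 FPKM in WT 1 to 3. Mutant 3 and WT 3 thus differed from their group in Xist, while WT 1 was close to WT 2. The Y-linked Ddx3y was at 19.8, 22.7 and 0.209 FPKM in mutant 1 to 3, against 15.8, 17.6 and 20.9 FPKM in WT 1 to 3. WT 1 and 2 held both transcripts, as material from both sexes would. By Xist and Ddx3y, the mix of sexes differed between libraries and was not the same in mutant and WT. Both genes were chosen after their values were seen. With Xist as a covariate, Gas1, Shh and Ptch1 stayed called, Cdon was called higher, and Gli1 and Gli3 were called lower. In each of the 6 fits that left out 1 library, Gas1, Shh and Ptch1 were called.

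**Figure D4:**
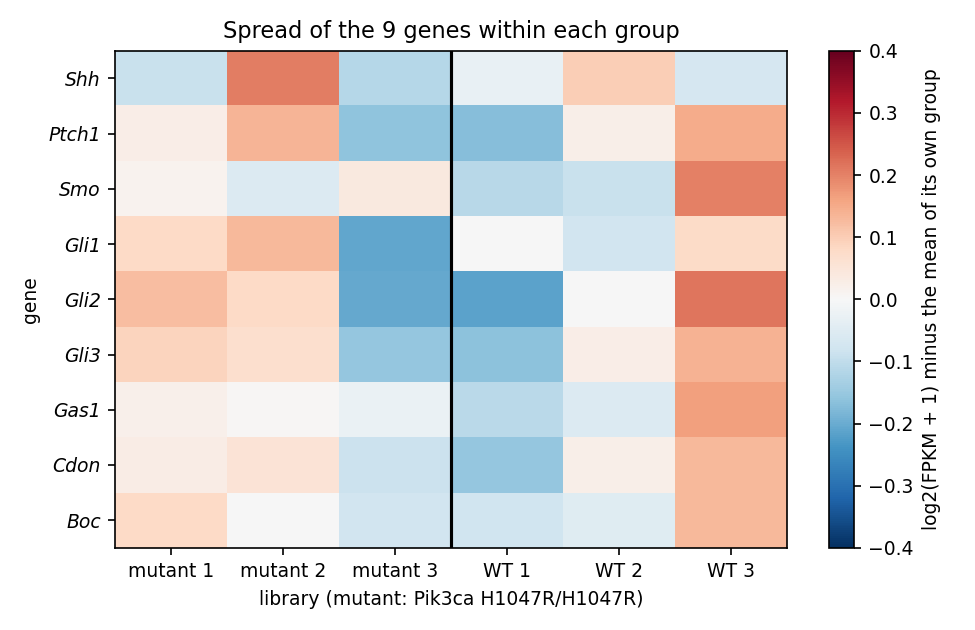
Heat map of each library's log2(FPKM + 1) minus the mean of its own genotype, for the 9 Hedgehog genes (rows) and 6 libraries (columns, mutant left of the black line), red above and blue below the mean. Mutant 3 is the lowest mutant library for 8 of 9 genes, WT 3 the highest WT library for 8 of 9 and WT 1 the lowest for 7 of 9.

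Of 107 further pathway symbols, listed by role from general knowledge, 103 were in the table and 82 were tested. Of these, 15 rose, 14 fell and 53 did not pass the test, so 35.4% were called, below the 46% of all genes tested, and their median log2 fold change was −0.01. Scaling every library to the same total FPKM moved the median gene from a log2 fold change of 0.01 to 0.30, and under that scaling 30 of the 82 were called higher and 2 lower. The 14 that fell became 9 without mutant 1, without mutant 2 or without WT 2. Relative to the median gene under that scaling, Gas1 differed by 1.67, Shh by 0.88, Ptch1 by 0.76, Smo by 0.28, Cdon by 0.22, Gli1 by −0.12 and Gli3 by −0.28 on the log2 scale. The summed FPKM was 538627 to 651769 in mutant libraries and 656761 to 767148 in WT libraries, so the 2 scalings differ. The median gene stayed nearer its deposited value at 0.0075 under median ratio scaling and 0.034 under quantile normalization. Median ratio scaling called 2620 genes higher and 2615 lower, and quantile normalization 3012 and 2410, against 2642 and 2592 as deposited.

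Around the ligand, Disp1, which releases lipid-modified Shh from producing cells, rose, at 17.1 ± 0.736 FPKM in mutant cells and 12.3 ± 0.890 FPKM in WT cells (SD, n = 3 each), with limma adjusted p = 0.00148. Hhat, the acyltransferase that palmitoylates the ligand, fell, at 2.12 ± 0.312 FPKM in mutant cells and 3.44 ± 0.134 FPKM in WT cells (limma adjusted p = 0.00345, n = 3 each), but its call was lost under equal total FPKM. Of the SCUBE proteins, which carry secreted ligand, Scube3 averaged 2.23 FPKM in mutant cells and 1.60 FPKM in WT cells, and Scube1 1.47 FPKM in mutant cells and 1.12 FPKM in WT cells, and neither passed the test. Altogether 1 of the 4 tested genes for ligand processing and release rose and 1 fell, and without mutant 1 the count that rose was 2.

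At the membrane, 3 of the 7 tested genes for receptors, coreceptors and inhibitors fell: the glypicans Gpc3 (75.9 ± 3.32 FPKM in mutant cells and 100.02 ± 1.57 FPKM in WT cells) and Gpc4, and the ciliary protein gene Evc. Under equal total FPKM the call of Gpc3 was lost, and Gpc4 and Evc changed sign. The call of Evc was also lost without any 1 library. Hhip, a decoy receptor induced by the pathway in other tissues, was below the minimum for testing, at 0.108 FPKM in mutant cells and 0.170 FPKM in WT cells.

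Of 26 tested cytoplasmic transducers, 7 rose and 3 fell, counts that became 14 and 0 under equal total FPKM. Sufu, which holds GLI proteins in check, averaged 10.5 ± 1.13 FPKM in mutant cells and 7.14 ± 0.525 FPKM in WT cells (SD, n = 3 each), that is log2 0.50 higher (limma adjusted p = 0.00291). Prkaca, the protein kinase A subunit that promotes GLI repressor formation, and Cul1, a ubiquitin ligase scaffold, also rose, by log2 0.36 and 0.52. Ulk3, a kinase reported to act on GLI proteins, rose by log2 0.75. Of 27 tested cilium genes, 3 rose (Kif3b, Inpp5e and Rpgrip1l) and 3 fell (Arl13b, Tctn1 and Cc2d2a), 22.2% in all, whereas 7 rose and 1 fell under equal total FPKM. Arl13b, a small GTPase that marks the ciliary membrane, averaged 11.6 ± 0.263 FPKM in mutant cells and 21.6 ± 1.91 FPKM in WT cells (SD, n = 3 each; limma adjusted p = 8.92e-05). The 3 cilium genes that fell became 1 without mutant 2, mutant 3 or WT 2, and the call of Inpp5e was lost without mutant 2.

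Of 18 tested genes known as GLI targets in other settings, 3 rose and 4 fell, with a median log2 fold change of −0.03. The 4 that fell became 2 without mutant 1, and under equal total FPKM 5 rose and 1 fell. Sox9, a transcription factor of the hair follicle, averaged 23.6 ± 0.671 FPKM in mutant cells and 47.7 ± 4.27 FPKM in WT cells (SD, n = 3 each; limma adjusted p = 4.17e-05). Ccne1, the gene of cyclin E1, and Sfrp1, a secreted Wnt modulator, rose by log2 0.67 and 1.22. Tsc22d1 averaged 287.0 FPKM in mutant cells and 161.8 FPKM in WT cells, a log2 fold change of 0.82. Of the pathway's textbook targets among the 9 genes, Ptch1 rose and Gli1 did not pass the test.

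**Figure D5:**
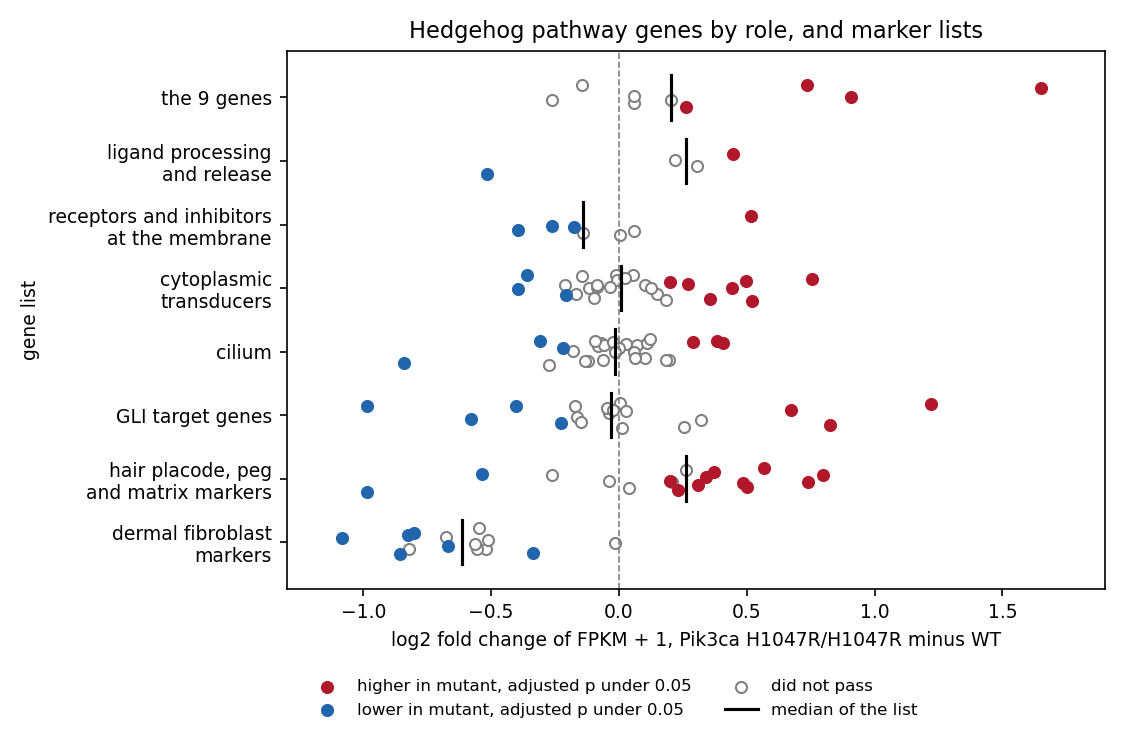
Log2 fold change of FPKM + 1 (mutant minus WT) of tested genes, 1 row for each list, with filled points for genes past the threshold (red higher, blue lower), open points for the others and a black bar at the median of each list. Filled points lie on both sides of 0 in the 5 lists of other pathway genes, with hair markers mostly to the right and dermal fibroblast markers to the left.

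Of the genes tested, the 5 whose pattern over the 6 libraries was nearest to that of Gas1, by Euclidean distance between log2(FPKM + 1) values centred on each gene's mean, were Fam83a (distance 0.173), Lrrc4 (0.176), Prom2 (0.184), Oas1f (0.241) and 4833423E24Rik (0.293). All 5 were higher in mutant cells, which the measure itself selects. Fam83a averaged 16.9 FPKM in mutant cells and 5.25 FPKM in WT cells.

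Several other cell types could contribute to these levels, and in bulk libraries fewer cells of a type and less RNA per cell cannot be told apart. Keratins of the basal layer were abundant, with Krt5 at a mean of 11977 FPKM in mutant cells and 12028 FPKM in WT cells. Krt14 averaged 8453 FPKM in mutant cells and 10194 FPKM in WT cells, lower in every mutant library than in every WT library, with a log2 difference of −0.27 that did not pass the test (limma adjusted p = 0.247) and was 0.058 under equal total FPKM. Of the 7 basal markers 1 rose (Krt15) and 3 fell, and the call of Krt15 was lost without mutant 2, WT 1 or WT 2. Itga6, the gene of the sorted integrin and named after its values were seen, fell, at 122.5 ± 2.13 FPKM in mutant cells and 163 ± 7.55 FPKM in WT cells (SD, n = 3 each), a call lost under equal total FPKM and under quantile normalization. Of 6 suprabasal markers, 3 rose (Krt1, Krt10 and Dsg1a), 1 fell and 2 did not pass the test, Krtdap and Ivl. The 1 that fell was Lor, the loricrin gene, at 31.6 ± 15.3 FPKM in mutant cells and 76.6 ± 24.4 FPKM in WT cells (SD, n = 3 each), with limma adjusted p = 0.0155, and 0 fell without mutant 2 or without WT 1. The suprabasal sum, mostly Krt1 and Krt10, was 11616 to 14197 FPKM in mutant libraries and 3745 to 4498 FPKM in WT libraries, with Krt1 at a mean of 5729.7 FPKM in mutant cells and 1489 FPKM in WT cells. Markers of the hair placode, peg and matrix, where Shh is made, held 10 of 17 tested genes that rose and 2 that fell, Sox9 and Krt17. That is 70.6% called, against 46% of all genes tested. Set beside this and the basal and suprabasal counts, 23.2% of all genes tested were called higher and 22.8% lower. The summed level of the hair markers, most of it Krt17, was 1637 to 1873 FPKM in mutant libraries and 2217 to 2617 FPKM in WT libraries. The groups overlapped in this sum under equal total FPKM. The 10 that rose became 6 without mutant 2, without WT 1 or without WT 2, and the call of Krt17 was lost under equal total FPKM and its sign turned under quantile normalization. Lhx2 averaged 17.2 ± 2.56 FPKM in mutant cells and 9.82 ± 0.628 FPKM in WT cells (SD, n = 3 each), a gene chosen after its values were seen. The part of these cells in the levels of Shh and Ptch1 was not tested.

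Dermal fibroblast markers, which mark cells with their own Hedgehog response, had 0 of 14 tested genes higher and 6 lower. That is 42.9% called, near the 46% of all genes tested that were called in either direction. The fibroblast markers summed to 691 to 701 FPKM in mutant libraries and 782 to 962 FPKM in WT libraries. Most of this sum was Postn (mean 335.8 FPKM in mutant cells and 338.5 FPKM in WT cells) and Dcn (214.6 and 272.3 FPKM), so it says little of the other fibroblast markers. Dermal papilla markers had 0 of 6 tested genes higher and 2 lower, and 8 of the 15 listed, among them Sox2, Fgf10, Fgf7, Corin and Rspo3, were below 0.5 FPKM in every library. Their summed level was 27.1 to 31.3 FPKM in mutant libraries and 32.2 to 35.7 FPKM in WT libraries. Most of this sum was Cntfr, at a mean of 22.4 FPKM in mutant cells and 22.8 FPKM in WT cells. Most of the gap was Inhba, called lower, at 0.675 FPKM in mutant cells and 4.56 FPKM in WT cells. The 6 fibroblast genes called lower became 1 without mutant 2, 3 without mutant 3, 2 without WT 1 and 1 under equal total FPKM, and 10 under the replicate block. The 2 dermal papilla genes called lower became 1 in each fit that left out a library other than WT 2. Melanocyte markers summed to 12.3 to 16.4 FPKM in mutant libraries and 16.8 to 23.1 FPKM in WT libraries. Schwann cell markers, mostly Erbb3, summed to 38.1 to 45.3 FPKM in mutant libraries and 58.3 to 64.7 FPKM in WT libraries. Immune markers summed to 4.72 to 6.35 FPKM in mutant libraries and 8.37 to 10.5 FPKM in WT libraries, with Cd207 listed at 0 in all 6. Skeletal muscle markers summed to 13.7 to 15.1 FPKM in mutant libraries and 20.4 to 33.3 FPKM in WT libraries. Merkel cell markers summed to 3.87 to 13.96 FPKM in mutant libraries and 2.97 to 3.53 FPKM in WT libraries. Most of this sum was Krt8 and Krt18, at 6.05 and 6.61 FPKM in mutant 1, the library with the highest sum. In mutant 2 and 3, Krt8 was at 2.29 and 1.68 FPKM and Krt18 at 0.547 and 1.14 FPKM. Atoh1, Isl1, Krt20, Piezo2 and Chga were below the minimum for testing. By the test, 2 of 3 melanocyte, 1 of 2 Schwann cell, 3 of 4 immune, 3 of 5 muscle and 3 of 6 erythroid genes fell. No tested gene of these lists rose, while 1 of 2 Merkel cell genes, Krt8, rose. These lists hold few tested genes, and over all genes tested 23.2% were called higher and 22.8% lower. Under equal total FPKM 0 melanocyte, Schwann cell or immune genes were called lower, and the call of Krt8 was lost without WT 1 or WT 2. Endothelial markers summed to 0.926 to 2.20 FPKM in mutant libraries and 1.58 to 4.18 FPKM in WT libraries, with none tested. Erythroid markers summed to 90.2 to 157 FPKM in mutant libraries and 230.4 to 313 FPKM in WT libraries. As deposited, the summed level of the dermal, melanocyte, Schwann, immune, muscle and erythroid lists was lower in every mutant library than in every WT library. Under equal total FPKM, applied to these sums after the data were seen, that held for skeletal muscle and erythroid markers alone. Fibroblast markers, mostly Postn and Dcn, then summed to 694 to 842 FPKM in mutant libraries and 691 to 833 FPKM in WT libraries. The part of these cells in the Hedgehog gene levels was not tested.

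Pik3ca itself averaged 6.65 ± 0.602 FPKM in mutant cells and 9.04 ± 0.415 FPKM in WT cells (SD, n = 3 each), that is log2 −0.39 (limma adjusted p = 0.00433), which became −0.10 (adjusted p = 0.589) under equal total FPKM. The label names a single amino acid change, which FPKM cannot show, so this level does not check the genotype. Overlapping genes on the other strand are annotated for Shh, Gli1, Gli3 and Gas1. Strand handling in the counting is not stated in the labels, so levels of these 4 genes could include reads of the partner. Arhgap9, which overlaps Gli1, averaged 1.39 FPKM in mutant cells and 1.54 FPKM in WT cells. 9530036O11Rik, which overlaps Shh, averaged 0.0220 FPKM in mutant cells and 0.00676 FPKM in WT cells. The partners of Gas1 (Gm48488) and Gli3 (Gm6556) had no FPKM values, so their levels could not be looked at. The same holds for Gm26894 and Gm47200, further partners of Shh and Gli1. The deposited span of Shh was 28456840 to 28719209, far wider than the annotated gene. That of Gli1 began at 127321964, outside its annotated gene. Whether these spans affect the levels was not tested.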

How the data were processed

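Gene expression was measured by RNA sequencing in 3 Pik3caH1047R/H1047R and 3 WT libraries. The deposited table gives FPKM and interval bounds per gene and library, per the file headers. The authors made the FPKM values with TopHat and Cufflinks, per the submitters' processing notes; the sources used here do not give versions, library scaling or strand handling. Those notes name mm9, but 98.9% of 23315 symbols overlapped the gene of that name in GENCODE M21 (GRCm38), the source of the gene positions printed. Depth is unknown, since FPKM hold no read totals, so no count interval is given.

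The 11385 genes that averaged 1 FPKM or more were tested with limma 3.58.1 in R 4.3.3 (empirical Bayes with a mean trend) on log2(FPKM + 1), with Benjamini-Hochberg adjustment over all genes and a threshold of 0.05. This scale understates the change of low genes. Ratios are of mean FPKM. Alternatives changed the scaling (equal total FPKM, median ratio, quantile), pseudocount and filter, dropped the mean trend, weighted libraries, added a replicate block or Xist as a covariate, and left out each library in turn. The procedure was tested on simulated data. Tables and figures used Python 3.11.15, numpy 2.4.6, pandas 2.3.3 and matplotlib 3.10.9.

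The members, gene lists and tests were chosen with earlier results of these data known. Named genes are the 9 members, up to 4 of each pathway list (called first by adjusted p, then by mean FPKM), up to 3 of each marker list by mean FPKM, Pik3ca, and the 5 nearest to Gas1. Genes outside this rule are said to be chosen after their values were seen, or are named to complete a short count. A few genes meeting this rule are left out here. Lists covered basal, suprabasal and hair follicle keratinocytes, fibroblasts, dermal papilla, melanocytes, Merkel, Schwann, endothelial, immune, muscle and erythroid cells.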

Additional observations from a re-analysis of the deposited data

How the results depend on the processing

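Gas1 and Ptch1 were called higher in 18 of 18 alternatives and Shh in 17 of 17 (a minimum of 5 FPKM leaves Shh out), with log2 fold changes of 1.60 to 1.98, 0.65 to 1.06 and 0.81 to 1.18. Smo kept 0.26 but lost its call with no filter, no variance trend and the replicate block (adjusted p = 0.0710, 0.0545 and 0.0618). Leaving out each library gave 0.21 to 0.36 for Smo, −0.35 to −0.19 for Gli3 (called without WT 1), 0.13 to 0.27 for Cdon (called without WT 3), 0 to 1 members lower and 9 to 11 other pathway genes lower. Cdon was called at 0.52 (equal total FPKM), 0.25 (quantile), 0.23 (library weights) and 0.17 (Xist covariate). Gli3 was called at −0.29 (quantile), −0.22 (weights) and −0.31 (Xist), and Gli1 at −0.19 (Xist), so members called lower were 1, 1 and 2. Equal total FPKM gave 5375 genes higher and 842 lower, 30 and 2 of the other pathway genes, and turned Gpc4 (0.058), Evc (0.12), Krt5 (0.32), Sostdc1 (0.29) and Postn (0.32). Quantile normalization turned Krt17 (0.15), Postn (0.34) and Dcn (0.021). Library weights called 24 other pathway genes higher. Hba-a2 was between −1.07 (without WT 3) and 1.89. The replicate block called 9 other pathway genes lower. The numbers do not pair the libraries: same-numbered libraries correlated at 0.127, 0.122 and −0.00735 in their deviations. The cause of these changes was not tested. FPKM without read totals limit what can be said of the lowest genes.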

Other observations

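Scube2, whose product helps carry Shh away from producing cells, lay just under the minimum for testing and was chosen after its values were seen. It averaged 1.13 ± 0.136 FPKM in mutant libraries and 0.567 ± 0.0466 FPKM in WT libraries (SD, n = 3 each), without overlap. Foxi3, a hair follicle transcription factor also chosen after its values were seen, averaged 9.50 ± 1.75 FPKM in mutant libraries and 5.02 ± 0.760 FPKM in WT libraries (limma adjusted p = 0.00223, n = 3 each).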
